A study of Homo sapiens with 4 samples.

Results

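Reticulons, atlastins and their partners are the membrane proteins that give the endoplasmic reticulum (ER) its form. The 10 genes described here are the reticulons RTN1, RTN2, RTN3 and RTN4, the atlastins ATL1, ATL2 and ATL3, the junction protein lunapark (LNPK), ARL6IP1 and CKAP4. They were taken by gene name from 51103 genes in the deposited tables, and all 10 were found. The samples were SCC-15 cells, a human line labelled as oral squamous cell carcinoma (OSCC), with lentiviral REEP6 overexpression (genotype REEP6-overexpression, 2 libraries) or as negative control (genotype NC, 2 libraries). Cells were harvested 48 hours later and polyadenylated RNA was sequenced. The labels say neither what the control virus carried nor whether the REEP6 cells came from 1 clone, and they do not name separate cultures, so every p-value here rests on library-to-library spread that may be technical. The comparison asks which genes respond to REEP6, a protein of the same ER membrane.

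The ER is a single membrane system drawn out into narrow tubules and flattened sheets. Reticulons and the REEP family insert hairpins into the outer face of the membrane and bend it, which makes tubules and the edges of sheets. Atlastins are GTPases that fuse tubules with each other, lunapark sits at the junctions that fusion creates, and CKAP4 is a coiled-coil protein that marks sheets and holds their faces apart.

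Between 12856256 and 15208629 counts were assigned to genes per library. REEP6 was higher in both overexpression libraries, at 20.0 and 20.9 FPKM (fragments per kilobase of exon, scaled to the library's total) against 11.1 and 12.6 FPKM in the controls. Of 10 squamous epithelial markers only EPCAM reached 1 FPKM in at least 2 libraries, at 0.957 and 1.36 FPKM in the controls and 1.83 and 2.36 FPKM with REEP6, while KRT6A had no count and KRT5, KRT14, KRT17, TP63 and CDH1 had between 0 and 14 counts in any library. These markers thus did not bear out the label of the line. Of 10 neuronal markers 5 reached that level, with a summed 95.3 and 104.0 FPKM in the controls and 57.7 and 61.2 FPKM with REEP6, and ELAVL4 had no count. Fibroblast markers summed to 34.5 to 36.5 FPKM in the controls and 18.1 to 18.3 FPKM with REEP6, with 4 of 10 at that level and FAP and DPT without a count. Most of that sum was COL3A1, at 25.2 and 22.1 FPKM in the controls and 14.45 and 13.9 FPKM with REEP6. PDGFRA went the other way, from 0.663 and 0.709 FPKM to 0.986 and 1.06 FPKM. Leukocyte, endothelial and melanocyte markers summed to at most 3.39 FPKM. In a bulk sample fewer cells of a type and less RNA per cell cannot be told apart.

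None of the 10 ER-shaping genes passed an adjusted p of 0.05 in either direction (edgeR's quasi-likelihood test with Benjamini-Hochberg adjustment over 13077 genes), where 25.1% of all tested genes passed, 10.9% higher and 14.2% lower. At an unadjusted p of 0.05 the count was 3 of 10 against 38.8% of all genes. DESeq2 and limma also called 0 of the 10 in either direction, but they called fewer genes in all. DESeq2 called 1186 higher and 1375 lower, and limma on log2(FPKM + 1) 634 and 1272, against 1422 and 1854 with edgeR. The median absolute log2 fold change was 0.20 for the 10 genes and 0.26 for all tested genes, and the median signed change was -0.03 against -0.01. For 9 of the 10 the 95% interval of the change lay within 1.5-fold in both directions, ATL1 being the exception. REEP6 itself had a log2 fold change of 0.82 ± 0.108 (SE; edgeR adjusted p 0.00119).

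**Figure D1:**
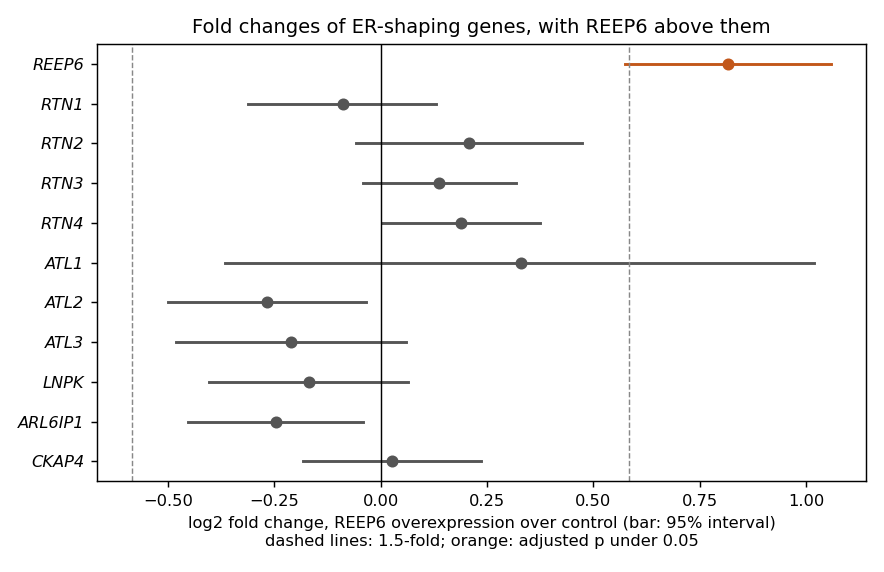
Log2 fold change of each ER-shaping gene and, at the top, of REEP6 (x axis; point, edgeR estimate; bar, 95% interval; n = 2 libraries per group; dashed lines, 1.5-fold; orange, adjusted p under 0.05). REEP6 is the only coloured gene, and the ATL1 bar is the only one of the 10 that crosses a dashed line.

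The 10 genes differed far more in level between each other than between the groups. Mean FPKM over the 4 libraries was 126.7 for ARL6IP1, 73.4 for RTN4, 62.9 for CKAP4, 45.3 for RTN3, 19.7 for ATL2, 14.0 for RTN1, 11.4 for ATL3, 8.83 for RTN2, 8.60 for LNPK and 0.991 for ATL1. Neighbours in this order had overlapping ranges over the libraries from RTN1 to ATL3, from ATL3 to RTN2 and from RTN2 to LNPK, and separate ranges elsewhere. FPKM here is counted per base of all annotated exons of a gene, 6644 bases for RTN4, whose 9 basic coding transcripts run from 1456 to 4790 bases. Rescaled to the median length of each gene's coding transcripts, RTN3 stood above CKAP4 (99.3 against 73.9) and the other ranks did not change.

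**Figure D2:**
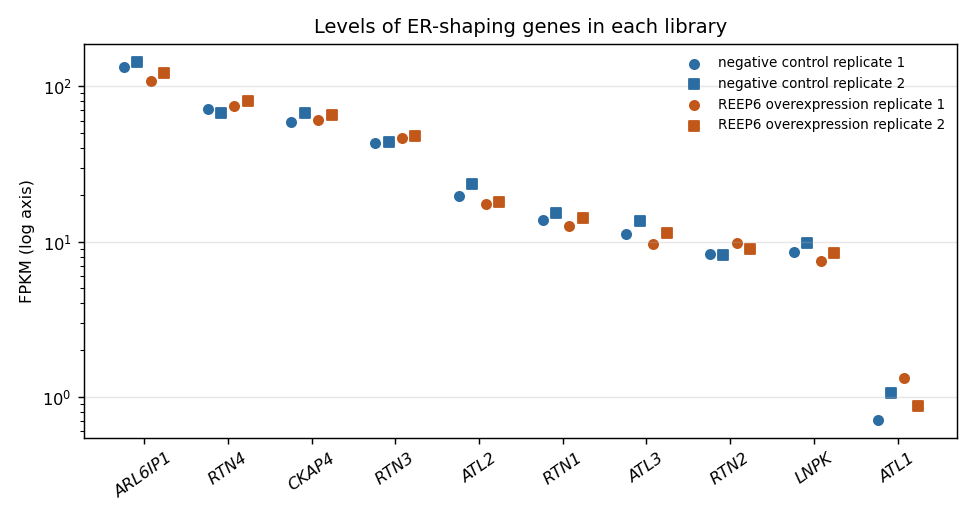
FPKM of the 10 ER-shaping genes (log axis) in each of the 4 libraries, ordered by mean level (blue, negative control; orange, REEP6 overexpression; circle, replicate 1; square, replicate 2). ARL6IP1 lies between 107.5 and 143.6 FPKM and ATL1 between 0.714 and 1.32 FPKM, and control and REEP6 points of a gene lie close together beside the distance between genes.

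Promoter windows of all 10 genes were found in RefSeq (GRCh38.p14; 250 bases upstream of the RefSeq start), and 3 that lie mostly outside annotated exons are shown for their unlike motif content. RTN3 was the only member with a match to CCAAT, ATL2 had 4 overlapping or single matches to GGGCGG, and LNPK, like RTN1 and ATL1, had neither. Both motifs were searched on both strands and are in capitals. CCAAT was found in 35.4% and GGGCGG in 68.6% of the windows of 8893 tested genes, and in 1 and 7 of the 10 members. The ER stress response element, bound during the unfolded protein response, was in 0 of the 10 and in 0.157% of the windows. The runs are printed 5′ to 3′ on the gene's strand and stop before the first annotated exon base.
RTN3, chr11:63681200-63681445, plus strand: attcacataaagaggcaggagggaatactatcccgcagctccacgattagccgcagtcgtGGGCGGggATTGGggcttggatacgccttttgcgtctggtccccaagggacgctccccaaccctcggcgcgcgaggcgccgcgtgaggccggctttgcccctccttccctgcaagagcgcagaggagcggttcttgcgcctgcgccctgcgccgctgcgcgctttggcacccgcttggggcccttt
ATL2, chr2:38377286-38377523, minus strand: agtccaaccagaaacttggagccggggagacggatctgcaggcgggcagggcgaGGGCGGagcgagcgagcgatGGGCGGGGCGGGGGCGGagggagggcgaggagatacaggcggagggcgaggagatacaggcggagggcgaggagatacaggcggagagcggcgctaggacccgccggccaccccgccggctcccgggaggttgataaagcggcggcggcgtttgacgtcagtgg
LNPK, chr2:176002840-176003070, minus strand: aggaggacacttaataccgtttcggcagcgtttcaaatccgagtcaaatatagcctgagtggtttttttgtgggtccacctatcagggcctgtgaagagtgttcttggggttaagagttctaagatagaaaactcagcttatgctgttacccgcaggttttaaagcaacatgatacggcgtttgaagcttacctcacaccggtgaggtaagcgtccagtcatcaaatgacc
The RTN3, ATL2 and LNPK windows held 66.4%, 69.2% and 45.6% G or C, in a range of 44.4% (RTN1) to 83.6% (CKAP4) over the 10. The RTN1, RTN4 and CKAP4 windows end at 59610389, 55049941 and 106248270, inside minus-strand genes annotated up to 59870966, 55112621 and 106304279. The ATL3 and ARL6IP1 windows end at 63671626 and 18801620, inside minus-strand genes annotated up to 63671921 and 18801678. The plus-strand ATL1 window starts at 50532832, inside a gene annotated from 50532509. For all of these genes the window thus belongs to an inner start, and the outermost annotated start was not searched. A match is a string of letters here, and binding was not measured.

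Among the reticulons, RTN4 (ENSG00000115310, chromosome 2, 54972187 to 55112621, minus strand, GRCh38), known as Nogo for its part in blocking axon regrowth and a general tubule former, was at 71.0 and 67.5 FPKM in the controls and at 75.0 and 79.8 FPKM with REEP6. Both REEP6 libraries were above both controls. The log2 fold change was 0.19 ± 0.0828 (SE), or 1.14-fold with a 95% interval of 1.00 to 1.30, and did not pass (edgeR adjusted p 0.124). RTN3 (chromosome 11, 63681446 to 63759891, plus strand), a reticulon that also acts as a receptor for autophagy of ER tubules, had the closest replicates, at 43.5 and 43.7 FPKM in the controls and 46.4 and 47.8 FPKM with REEP6. Its groups did not overlap either, with a log2 fold change of 0.14 ± 0.0801 (SE; edgeR adjusted p 0.234). The long and short forms of these genes, which share the reticulon domain, are not separated by a count per gene.

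RTN2 (chromosome 19, 45485289 to 45497061, minus strand), a gene of hereditary spastic paraplegia that is best known in muscle and nerve, was at 8.38 and 8.18 FPKM in the controls and 9.78 and 8.98 FPKM with REEP6. The groups were separate but the log2 fold change of 0.21 ± 0.119 (SE) did not pass (edgeR adjusted p 0.23). RTN2 exons share 203 bases with PPM1N on the other strand, a gene with 58 to 79 counts. RTN1 (chromosome 14, 59595976 to 59870966, minus strand), a reticulon first described in neuroendocrine tissue, was at 13.9 and 15.3 FPKM in the controls and 12.6 and 14.3 FPKM with REEP6, so its groups overlapped. Its log2 fold change was -0.09 ± 0.0986 (SE; edgeR adjusted p 0.545). Beside it the neuronal markers SNAP25, STMN2 and SYT1 fell by 0.88, 0.69 and 1.23 on the log2 scale (edgeR adjusted p 0.000379, 0.00233 and 0.000299), while GAP43 (0.58 ± 0.224 SE, edgeR adjusted p 0.088) and TUBB3 (-0.53 ± 0.244 SE, 0.14), the other neuronal markers tested, were not called. The difference between RTN1 and these genes was not tested.

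Among the atlastins, ATL2 (chromosome 2, 38294880 to 38377285, minus strand), an atlastin of most cell types, was at 19.8 and 23.6 FPKM in the controls and 17.5 and 17.9 FPKM with REEP6. Both REEP6 libraries were lower than both controls, and the 2 controls stood further apart than the REEP6 pair. The log2 fold change of -0.27 ± 0.104 (SE), 1.20-fold lower, did not pass (edgeR adjusted p 0.0873). ATL3 (chromosome 11, 63624087 to 63671921, minus strand), which also serves as a receptor in ER-phagy, was at 11.1 and 13.6 FPKM in the controls and 9.60 and 11.4 FPKM with REEP6. The groups overlapped, with a log2 fold change of -0.21 ± 0.12 (SE; edgeR adjusted p 0.228). ATL3 and RTN3 lie head to head, with 9525 bases between their annotated starts.

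ATL1 (chromosome 14, 50532509 to 50633068, plus strand), the neuronal atlastin and a frequent cause of hereditary spastic paraplegia, was close to the detection filter. It had 40 and 70 control counts against 76 and 51 with REEP6, that is 0.714 and 1.06 against 1.32 and 0.879 FPKM, and passed the filter through 1 library of each group. The groups overlapped, and the 95% interval of the fold change ran from 0.777 to 2.03, an interval that also holds a change of the size seen for REEP6. Its exons share 840 bases with SAV1 and 147 with MAP4K5 on the other strand, both with more counts than ATL1 (587 to 698 and 884 to 1210), so the ATL1 counts are uncertain where strand was not used.

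ARL6IP1 (chromosome 16, 18791667 to 18801678, minus strand), a small hairpin protein of ER tubules that binds atlastins, was the most abundant of the 10, at 133.7 and 143.6 FPKM in the controls and 107.5 and 121.8 FPKM with REEP6. All REEP6 values were below all control values. The log2 fold change was -0.25 ± 0.0914 (SE), 1.19-fold lower, with the smallest p of the 10 genes (unadjusted 0.0229, edgeR adjusted p 0.0753). Its 3 annotated processed pseudogenes held 0 or 1 counts per library. ARL6IP1 exons also share 546 bases with AC138811.2, a protein-coding gene on the same strand with 0 counts in every library. The effect of this overlap on the ARL6IP1 counts was not tested. LNPK (chromosome 2, 175923892 to 176002839, minus strand) was at 8.57 and 9.79 FPKM in the controls and 7.53 and 8.50 FPKM with REEP6. The lower control and the higher REEP6 library nearly touched, with a log2 fold change of -0.17 ± 0.104 (SE; edgeR adjusted p 0.261).

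CKAP4 (chromosome 12, 106237877 to 106304279, minus strand), the sheet protein also called CLIMP-63, was at 58.8 and 66.9 FPKM in the controls and 60.7 and 65.0 FPKM with REEP6. Both REEP6 values lay between the controls. Its log2 fold change was 0.03 ± 0.0933 (SE), with a 95% interval of the fold change from 0.881 to 1.18 (edgeR adjusted p 0.866). TCP11L2, on the other strand with 220 shared exon bases, had 346 and 428 control counts and fell to 178 and 181 (2.00-fold lower, edgeR adjusted p 0.00138), and its part in the CKAP4 counts was not tested.

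Values of 3 genes were separate and higher with REEP6 (RTN2, RTN3 and RTN4) and of 3 separate and lower (ATL2, LNPK and ARL6IP1). Over all tested genes 63.5% had separate groups, 28.2% higher and 35.3% lower, so 6 of 10 was near the background. The split depended on scaling: with FPKM scaled to equal sums 0 members were separate and higher and 5 lower (RTN1, ATL2, ATL3, LNPK and ARL6IP1), beside 18.7% and 44.4% of all genes, and on TMM-scaled FPKM LNPK overlapped, leaving 3 higher and 2 lower. Differences within the control pair were larger than those between groups for some genes and smaller for others. On TMM-scaled FPKM the control pair differed most for ATL1, by 0.565 on the log2 scale. The difference was 0.29 for ATL3, 0.26 for ATL2, 0.19 for LNPK and 0.19 for CKAP4, with replicate 2 higher in all of these. For RTN2, RTN3, RTN4 and ARL6IP1 replicate 2 over replicate 1 was -0.035, 0.0086, -0.074 and 0.10, smaller in size than the fitted changes. For 5 of the 10 genes the control pair differed by more than the fitted group change. Replicate 2 was the higher one in both groups for 7 of the 10 genes and for 31.4% of all tested genes.

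Within the families the main genes kept their order in all libraries. RTN4 supplied 50.1% to 52.9% of the summed FPKM of the 4 reticulons and RTN3 31.7% to 32.5%, and ATL2 supplied 59.3% to 62.5% of that of the 3 atlastins. The RTN1 share was 10.1% and 11.3% in control libraries against 8.78% and 9.45% in REEP6 libraries, with separate groups. The RTN4 share was 51.9% and 50.1% against 52.2% and 52.9%, separate in the other direction by less than the control pair differed. Shares of 1 sum depend on each other, and they were not tested. The share of the weakly expressed ATL1 ran from 2.26% to 4.64% of the atlastins. Between families, the ratio of summed reticulon to summed atlastin FPKM was 4.32 and 3.52 in control libraries against 5.06 and 5.00 in REEP6 libraries, and the ratio of ARL6IP1 to RTN4 was 1.88 and 2.13 against 1.43 and 1.53. Both ratios had separate groups, were chosen after the values were seen and were not tested, and 2 against 2 libraries cannot give an exact permutation p below 0.333. CKAP4 over the sum of reticulons and atlastins, a ratio of a sheet gene to tubule genes, was 0.349 and 0.387 without and 0.352 and 0.359 with REEP6, with overlapping groups.

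**Figure D3:**
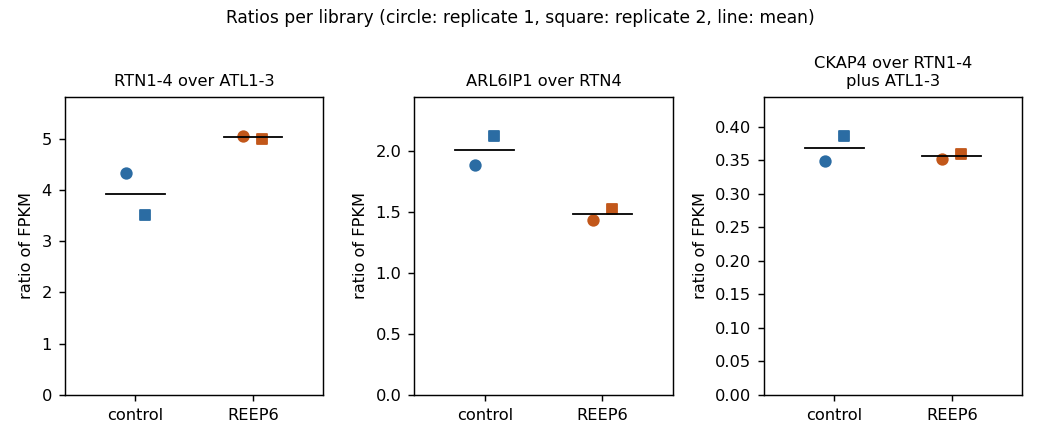
Ratios of FPKM in each library (y axes from 0; blue, control; orange, REEP6 overexpression; line, group mean; n = 2 per group). The REEP6 libraries lie at 5.00 and 5.06 for reticulons over atlastins, above controls at 3.52 and 4.32, and the third ratio overlaps between groups.

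Calls for single members appeared in 12 of 179 combinations of gene and alternative setting, and in 6 of 169 without the fits with a replicate term. Over all 13077 genes, equal FPKM sums called 661 higher and 2824 lower, a GC correction 1172 and 1148, and a length correction 1616 and 1553. With FPKM scaled to equal sums, a scaling under which the median gene had a log2 fold change of -0.14, ATL2 (-0.40, edgeR adjusted p 0.0169) and ARL6IP1 (-0.38, 0.0185) were lower, and without control replicate 1 ATL2 (-0.39, 0.0134) and ATL3 (-0.35, 0.0392) were lower. That last fit takes its spread from the REEP6 pair alone and assumes that the lone control varies alike. A correction for transcript GC content raised the log2 fold change of RTN4, whose transcripts have 42.3% GC against a median of 49.0% over tested genes, to 0.37 (edgeR adjusted p 0.014). It took ATL2 to -0.06 and LNPK, at 38.9% GC the poorest of the 10 in GC, from -0.17 to 0.12, neither called. RTN1, RTN2 and CKAP4 were called in 0 of 18 alternatives each and ATL1 in 0 of 17. A length correction made ARL6IP1 lower (-0.28, edgeR adjusted p 0.0449).

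**Figure D4:**
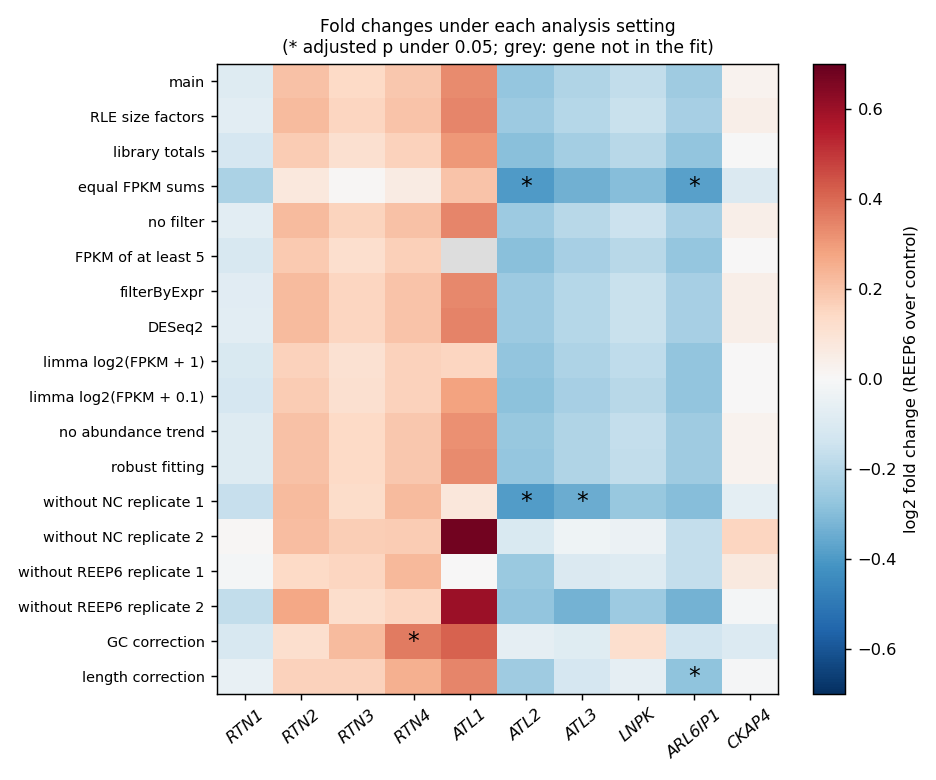
Log2 fold change of the 10 genes (columns; colour scale) in the reported fit (top row, main) and 17 alternatives without a replicate term (other rows; * adjusted p under 0.05; grey, gene not in the fit). The reported fit has no star, and 6 of the other cells have one, 3 of them for ATL2 or ATL3 without control replicate 1 or with equal FPKM sums.

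Genes that work with these proteins included some that changed. In 7 related lists, 50 genes other than REEP6 were tested and 18 passed, 6 higher and 12 lower. That is 36.0% against 25.1% of all genes, but the lists were chosen with earlier results of these data known. The higher share therefore cannot be read as enrichment, and the difference between these lists and the 10 genes was not tested. Of the 18, the 6 genes ARL6IP5, RAB3GAP1, KTN1, CCDC47, ESYT1 and MOSPD2 passed in every alternative that tested them. Their changes were smaller with a GC correction, though still called. The corrected log2 fold changes were -0.43 (ARL6IP5), -0.31 (RAB3GAP1), -0.46 (KTN1), -0.51 (CCDC47), 0.31 (ESYT1) and -0.50 (MOSPD2, edgeR adjusted p 0.0435). The 9 genes below the detection filter included REEP1, RETREG1 and 7 of the 12 Nogo receptor genes.

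In the REEP family REEP2 rose and REEP5 fell beside REEP6. REEP5, the widespread tubule-forming paralog, was at 21.7 and 22.3 FPKM in control cells and 17.0 and 18.4 FPKM with REEP6. Its change of -0.28 ± 0.0892 (log2, SE; edgeR adjusted p 0.0432) was called in 6 of 18 alternatives. REEP2 was at 2.80 and 2.98 against 4.14 and 4.14 FPKM, and its change of 0.55 ± 0.165 (log2, SE; edgeR adjusted p 0.0381) was called in 9 of 17.

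Tubule partners and junction regulators had 4 of 12 members lower and 0 higher, where 14.2% of all tested genes were lower and 10.9% higher. ARL6IP5, a small membrane protein with a prenylated-Rab-acceptor fold, was at 112.1 and 113.0 FPKM in the controls and 72.6 and 69.9 FPKM with REEP6, well separated (log2 fold change -0.63 ± 0.0819 SE, edgeR adjusted p 0.00108). RAB3GAP1, a subunit of the exchange factor for the ER GTPase RAB18, fell by 0.47 on the log2 scale, and RAB18 itself fell by 0.42 (edgeR adjusted p 0.00484 and 0.0108). Corrected for GC content, the RAB18 change was -0.10 and the call ended (edgeR adjusted p 0.477). ZFYVE27 (protrudin), which binds atlastins and spastin, fell by 0.28 (edgeR adjusted p 0.0464) and was called in 7 of 18 alternatives. The microtubule-severing partner SPAST was among the 8 members not called.

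Sheet and ribosome-binding membrane proteins had calls in both directions, 3 of 8 higher and 2 lower (10.9% and 14.2% of all tested genes). KTN1 (kinectin), a sheet-enriched coiled-coil protein like CKAP4, was at 32.1 and 30.5 FPKM in the controls and 17.5 and 18.0 FPKM with REEP6, a log2 fold change of -0.79 ± 0.0814 (SE; edgeR adjusted p 0.000467). CCDC47, a translocon partner for multipass proteins, fell by 0.66. The translocon subunit SEC61B and the oligosaccharyltransferase subunits DAD1 and STT3A rose by 0.30, 0.35 and 0.37 on the log2 scale. With FPKM scaled to equal sums their values were 0.17, 0.22 and 0.24 and none was called (edgeR adjusted p 0.217, 0.103 and 0.0976), and 0 of the 3 were called with either limma fit or with no abundance trend. RRBP1, the other classic sheet protein, was not called.

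ER-phagy receptors had 3 of 6 tested members lower and 0 higher, beside 14.2% and 10.9% of all tested genes: the translocon protein SEC62 (log2 fold change -0.44 ± 0.0929 SE, edgeR adjusted p 0.00913), CCPG1 (-0.79 ± 0.173, 0.0104) and CALCOCO1 (-0.42 ± 0.106, 0.0196). The calls of SEC62 and CCPG1 ended with a GC correction (edgeR adjusted p 0.331 and 0.0663), and their transcripts have 38.4% and 38.6% GC. CALCOCO1 was called in 13 of 18 alternatives, and without REEP6 replicate 2 it was not (-0.30, edgeR adjusted p 0.165). In the Nogo receptor list 0 of 5 tested genes passed. The beta-secretase BACE1, which reticulons bind, had a log2 fold change of 0.38 ± 0.152 (SE; edgeR adjusted p 0.0974), BACE2 of 0.46 ± 0.179 and S1PR2, a receptor for Nogo, of 0.78 ± 0.358 at 0.448 to 1.22 FPKM. Without single libraries BACE2 ran from 0.22 to 0.79, called without control replicate 2 (edgeR adjusted p 0.0044) or REEP6 replicate 1 (0.0248), and S1PR2 from 0.37 to 1.43, called without control replicate 2 (0.0186).

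In the lipin pathway, which sets phospholipid supply to ER membranes, CNEP1R1, the regulatory subunit of a phosphatase that acts on lipins, was 1 of 5 called and fell by 0.59 on the log2 scale (edgeR adjusted p 0.0192), also a call that ended with a GC correction (0.112). Its catalytic partner CTDNEP1 had a value of 0.36 ± 0.16 (SE) and LPIN2 of 0.18 ± 0.1, not called. Without single libraries CTDNEP1 ran from 0.18 to 0.59 and was called without control replicate 1 (edgeR adjusted p 0.0159). Among contact-site tethers 2 of 10 were higher and 1 lower, near the 25.1% of all tested genes called in either direction. ESYT1, a tether to the plasma membrane, rose by 0.43 ± 0.0853 (SE; edgeR adjusted p 0.00685), VAPB by 0.30 ± 0.0857 (0.0312; called in 9 of 18 alternatives), and MOSPD2, at 3.86 and 3.79 FPKM against 1.98 and 2.27, fell by 0.82 ± 0.151 (SE; edgeR adjusted p 0.00482).

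**Figure D5:**
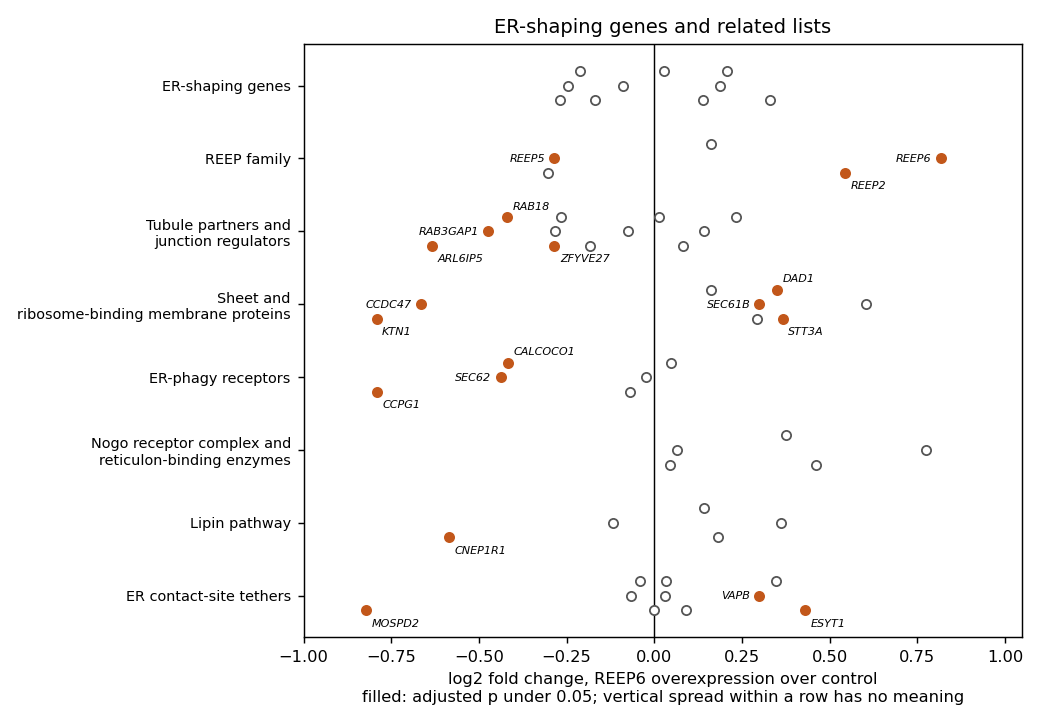
Log2 fold change (x axis) of each tested gene in the 10 ER-shaping genes (top row) and 7 related lists (filled and named, adjusted p under 0.05; open, not called; edgeR, n = 2 per group). The top row and the Nogo receptor list have no filled point. Named genes lie on both sides of 0 for the REEP family, sheet and contact-site lists. They lie only below 0 for the tubule partners, ER-phagy receptors and lipin pathway.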

How the data were processed

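Polyadenylated RNA from 4 libraries of SCC-15 cells was sequenced, 2 per group, and groups were read from the sample titles. The authors deposited raw counts per gene and FPKM values in 1 table per sample, per the file headers. HISAT2, HTSeq 0.13.5 and the build GRCh38 are named, with no roles, in the submitters' processing notes. No source used here gives the annotation or the strand setting. The deposited FPKM gave 1 length per gene for 100% of 29161 genes (relative tolerance 0.0001), and for the members that length equalled the union of exons in GENCODE release 29.

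Genes with at least 1 FPKM in at least 2 of 4 libraries entered the test (13077 genes). TMM-scaled counts were fitted with edgeR 4.0.16 (quasi-likelihood, abundance trend, group as the only term, 2 residual degrees of freedom), two-sided, with Benjamini-Hochberg adjustment. Standard errors are the log2 fold change over the square root of F, and 95% intervals use the t distribution on the total degrees of freedom. On simulated data the method recovered 53% of 1.5-fold, 78% of 2-fold and 96% of 3-fold changes, with 7 calls among unchanged genes. Changes of 1.5-fold or less can thus go uncalled. Fewer genes were changed in the simulation than were called in the data, so the recovery rates need not hold for the data. DESeq2 1.42.0 and limma 3.58.1 were alternatives, with other scalings, filters, left-out libraries and a replicate block. GC and length corrections (loess, span 0.3), transcript lengths and 2 of the ratios were added after seeing the data.

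The members, the related lists and the marker lists were chosen with earlier results of these data known. Named genes are REEP6, all members, called list genes, up to 3 genes per list with the smallest p, markers, and genes that overlap a member. Genes not called were named also for their function, after their values were seen. Promoter windows are from RefSeq (GRCh38.p14), and 10 of 10 members matched by symbol. No protein sequence was used here.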

Additional observations from a re-analysis of the deposited data

How the results depend on the processing

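The depth limits ATL1, with 40 to 76 counts per library. Where 1 library is left out, the lone library is assumed to vary like the other pair. Against 0 members higher and 0 lower, a GC correction gave 1 higher (RTN4), a length correction 1 lower (ARL6IP1, log2 fold change -0.28, edgeR adjusted p 0.0449), equal FPKM sums 2 lower (ATL2 -0.40, ARL6IP1 -0.38) and leaving out single libraries 0 to 2 lower and 0 higher, with ATL2 at -0.39 to -0.11 and ATL3 at -0.35 to -0.033. RTN4 was 0.37 with the GC correction. Replicate numbers are shared by the groups, but the labels tie them to no culture or day. The deviations of control and REEP6 replicate 1 from their group means correlated at 0.271 across 13077 genes, with only 2 pairs. With the replicate number as a block 2 members were higher, RTN3 (0.14) and RTN4 (0.19), and 4 lower, ATL2 (-0.26), ATL3 (-0.21), LNPK (-0.17) and ARL6IP1 (-0.25). A block leaves fewer residual degrees of freedom per gene than the 2 of the reported fit, so its spread is poorly known. The block raised calls throughout, with 15 related genes higher (7 without it) and 15 lower (12 without it). Over all 13077 genes it gave 2957 higher and 3062 lower, against 1422 and 1854 without it. Directions turned for RTN1 without control replicate 2 (0.0093), for LNPK with a GC correction (0.12) and for CKAP4, near 0 throughout, with library totals (-9.8e-05), equal FPKM sums (-0.10), a GC correction (-0.093) or a length correction (-0.010), and without control replicate 1 (-0.067) or REEP6 replicate 2 (-0.016), its values without single libraries running from -0.067 to 0.15. The cause of these shifts was not tested.

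Of 7 related genes higher (REEP6 included) and 12 lower, equal FPKM sums left 2 higher, DESeq2 4, limma on log2(FPKM + 1) 3, limma on log2(FPKM + 0.1) 3, a fit with no abundance trend 3 and the fits without 1 library 4 to 7 higher and 9 to 11 lower. A GC correction left 7 lower, and an adjusted p of 0.01 left 2 higher and 6 lower. Over all genes, 1422 higher and 1854 lower became 661 and 2824 with equal FPKM sums (19.0% higher against 43.4%), 634 and 1272 with limma on log2(FPKM + 1), 597 and 1233 with a pseudocount of 0.1, 936 higher with a minimum of 5 FPKM, where fewer genes are tested, 1148 lower with a GC correction and 495 and 897 at an adjusted p of 0.01. Without 1 library the counts were 940 to 1495 higher and 1272 to 1717 lower.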
